A study of Homo sapiens with 2 samples.

Results

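Replication-dependent histone genes of the linker histone H1 and the core histone H4 were followed in ribosome footprints of HEK293 cells, a long-established line derived from human embryonic kidney. They are 10 of the 57820 gene IDs in the count table: 5 encode H1 and 5 encode H4. Other replication-dependent H1 and H4 genes exist and were not included. Shares, totals and ratios of H1 and H4 therefore refer to these 10 genes only. The H1 genes are H1-1 (ENSG00000124610, formerly HIST1H1A), H1-2 (ENSG00000187837, HIST1H1C), H1-3 (ENSG00000124575, HIST1H1D), H1-4 (ENSG00000168298, HIST1H1E) and H1-5 (ENSG00000184357, HIST1H1B). The H4 genes are H4C1 (ENSG00000196176, formerly HIST1H4A), H4C2 (ENSG00000124529, HIST1H4B), H4C3 (ENSG00000197061, HIST1H4C), H4C14 (ENSG00000183941, HIST2H4A) and H4C15 (ENSG00000182217, HIST2H4B). The genes were chosen by name with their counts in both libraries in view, so their levels and their ratios between the libraries are given as a description. Both libraries came from cells given DMSO vehicle for 12 h, replicate 1 in batch 1 and replicate 2 in batch 2, and no other group was analysed here. In ribosome profiling, RNase trims mRNA outside bound ribosomes and the protected fragments are sequenced. The total was 865838 counts in replicate 1 and 611266 counts in replicate 2.

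Histone H4 pairs with H3 in the protein core around which DNA is wrapped, and H1 binds where DNA enters and leaves that core. Replication-dependent histone genes are transcribed mainly in S phase, lack introns, and give mRNAs that end in a stem-loop in place of a poly(A) tail. The stem-loop binds SLBP, which promotes the translation of these mRNAs. The canonical H4 genes encode the same protein, whereas each H1 gene encodes a variant of its own. Fragments were selected by size on a gel, from 20 to 38 nt, so a poly(A) tail was not needed for a message to enter these libraries.

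The sequences just before the starts of the H1 genes are shown first, because H1-3 and H1-5, which were low in footprints, share the arrangement of H1-2 and H1-4, which were high. Each line gives the 120 bases before the annotated start, 5′ to 3′ on the gene's strand, from RefSeq (GRCh38.p14). Capitals mark AAACACA (letters of the H1 AC box), CCAAT (a binding site of the factor NF-Y) and TATANA (letters of a TATA box; overlapping matches are joined).
H1-2: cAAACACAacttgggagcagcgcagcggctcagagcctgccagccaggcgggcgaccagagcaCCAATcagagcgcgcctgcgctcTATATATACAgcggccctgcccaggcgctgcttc
H1-4: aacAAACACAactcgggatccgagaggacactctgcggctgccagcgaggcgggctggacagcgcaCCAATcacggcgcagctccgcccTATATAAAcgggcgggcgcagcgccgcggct
H1-1: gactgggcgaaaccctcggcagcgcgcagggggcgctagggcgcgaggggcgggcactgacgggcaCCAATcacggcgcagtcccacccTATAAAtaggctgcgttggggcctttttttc
H1-3: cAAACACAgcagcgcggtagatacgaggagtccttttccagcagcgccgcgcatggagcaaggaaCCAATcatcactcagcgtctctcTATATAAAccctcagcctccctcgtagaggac
H1-5: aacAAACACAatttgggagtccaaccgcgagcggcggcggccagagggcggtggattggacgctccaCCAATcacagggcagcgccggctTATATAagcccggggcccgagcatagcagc
These stretches lie on chromosome 6, at chr6:26056471-26056590 on the minus strand for H1-2, chr6:26156209-26156328 on the plus strand for H1-4, chr6:26017788-26017907 on the minus strand for H1-1, chr6:26234988-26235107 on the minus strand for H1-3 and chr6:27867589-27867708 on the minus strand for H1-5.

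The H4 stretches are shown because H4C14 and H4C15 have the same promoter letters, and H4C2 has the highest mean level of the 5 chosen H4 genes. Each line gives the 75 bases before the start, and capitals mark GGTCCG (letters of the H4 site bound by HINFP) and TATANA.
H4C2: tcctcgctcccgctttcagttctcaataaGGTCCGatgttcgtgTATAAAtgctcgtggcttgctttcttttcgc
H4C14: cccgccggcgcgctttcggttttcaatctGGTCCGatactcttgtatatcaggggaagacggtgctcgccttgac
H4C15: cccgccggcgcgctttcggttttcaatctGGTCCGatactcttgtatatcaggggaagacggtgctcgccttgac
H4C2 lies at chr6:26027284-26027358 on the minus strand, H4C14 at chr1:149832582-149832656 on the plus strand and H4C15 at chr1:149861160-149861234 on the minus strand. Promoter entries were matched for 8 of the 10 genes. H4C1 and H4C3 are named only.

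Over the 250 bases before the start, AAACACA was found on the gene's strand in 4 of the 5 H1 promoters, and in H1-1 only on the opposite strand. On the gene's strand these letters occur in 2.42% of all 35116 promoter windows of that length, and on either strand in 4.82%. AAACACA, then CCAAT, then TATANA in that order on the gene's strand were found in H1-2, H1-3, H1-4 and H1-5, and in 11 windows (0.0313%) in all. In those 4 genes an AAACACA match began at -119 in H1-2 and H1-3 and at -117 in H1-4 and H1-5, counting the base just before the start as -1. GGTCCG was found on the gene's strand in 3 of the 3 H4 promoters, each time from -46 to -41. These letters occur on the gene's strand in 5.15% of all windows, and on either strand in 9.43%. CCAAT was found in 5 of the 5 H1 promoters and in 0 of the 3 H4 promoters, against 32.0% of all windows on either strand. TATANA was found on either strand in 5 of the 5 H1 promoters and in 3 of the 3 H4 promoters, against 17.7% of all windows, and on the gene's strand in only 1 of the 3, that of H4C2. The windows of H4C14 and H4C15 are identical, so the 3 H4 promoters are not 3 separate sequences. A match is a run of letters and was not tested as a binding site.

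**Figure D1:**
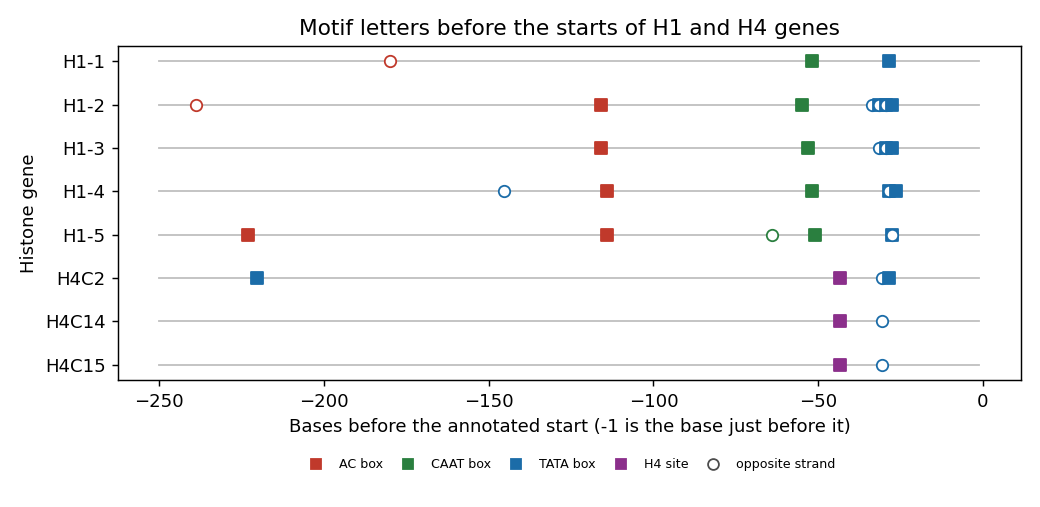
Position of motif letters (x axis, bases before the annotated start) in the promoters of 8 histone genes (y axis). Filled squares are matches on the gene's strand and open circles are matches on the opposite strand. H1-2 to H1-5 share the order AC box, CAAT box, TATA box, and the H4 site sits at the same place in all 3 H4 promoters shown. Those of H4C14 and H4C15 are identical in sequence.

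Among the 5 chosen H1 genes, nearly all footprints came from H1-2 and H1-4. H1-2 had 597 counts (690 CPM, counts per 1000000 counts of the library; 95% exact Clopper-Pearson interval 635 to 747) in replicate 1 and 541 counts (885 CPM, 812 to 963) in replicate 2. H1-4 had 586 counts (677 CPM, 623 to 734) in replicate 1 and 536 counts (877 CPM, 804 to 954) in replicate 2. The count of H1-2 over that of H1-4 was 1.02 (0.908 to 1.14) in replicate 1 and 1.01 (0.894 to 1.14) in replicate 2, so these linker histones could not be told apart in count in either library. Such intervals cover counting error only, and since PCR copies were not marked by molecular identifiers they may be too narrow even for that.

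The other H1 genes were far lower. H1-1 had 62 counts (71.6 CPM) in replicate 1 and 51 counts (83.4 CPM) in replicate 2, and H1-3 had 18 counts (20.8 CPM) and 27 counts (44.2 CPM). H1-5 had 1 count in replicate 1 (1.15 CPM, 0.0292 to 6.43) and 0 counts in replicate 2, where the upper limit of the same interval is 6.03 CPM and 3 counts, the floor for an empty ID, correspond to 4.91 CPM. H1-5 was thus near or below detection at this depth. Its promoter holds the same 3 runs of letters in the same order as those of H1-2 and H1-4. A link between these letters and footprint level was not tested. H1-2 supplied 47.0% ± 0.277 and H1-4 46.4% ± 0.0326 of H1 footprints, against 4.66% ± 0.346 from H1-1 and 1.88% ± 0.646 from H1-3 (SD, n = 2). The counting intervals of these 4 shares overlapped between the libraries. H1 variants resemble each other in sequence, and the way fragments that match several genes were assigned is not given, so the split among them is uncertain. All 20 values of the 10 genes were whole numbers.

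Among the 5 chosen H4 genes, 3 genes of the chromosome 6 cluster carried most of the footprints. H4C2 had 391 counts (452 CPM, 408 to 499) in replicate 1 and 427 counts (699 CPM, 634 to 768) in replicate 2. H4C1 had 231 counts (267 CPM, 233 to 304) in replicate 1 and 381 counts (623 CPM, 562 to 689) in replicate 2. H4C3 had 217 counts (251 CPM, 218 to 286) in replicate 1 and 224 counts (366 CPM, 320 to 418) in replicate 2. H4C2 had the highest count of the 5 chosen H4 genes in both libraries, but in replicate 2 its interval overlapped that of H4C1. H4C1 was close to H4C3 in replicate 1, where their intervals overlapped, and above it in replicate 2.

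H4C14 and H4C15, on chromosome 1, were low. H4C14 had 17 counts (19.6 CPM, 11.4 to 31.4) in replicate 1 and 14 counts (22.9 CPM, 12.5 to 38.4) in replicate 2. H4C15 had 31 counts (35.8 CPM, 24.3 to 50.8) in replicate 1 and 70 counts (115 CPM, 89.3 to 145) in replicate 2. H4C15 over H4C14 was 1.82 (0.979 to 3.51) in counts in replicate 1 and 5.00 (2.79 to 9.61) in replicate 2. The RefSeq windows of the pair, 250 bases before and 50 after the start, were identical at 300 of 300 bases. H4C14 and H4C15 are near-identical copies, so their split is uncertain. How fragments that match both copies were handled is not given. The low levels of H4C14 and H4C15 and their sum may therefore be underestimates, which was not tested. Summed, the pair had 48 counts (55.4 CPM) in replicate 1 and 84 counts (137 CPM) in replicate 2.

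**Figure D2:**
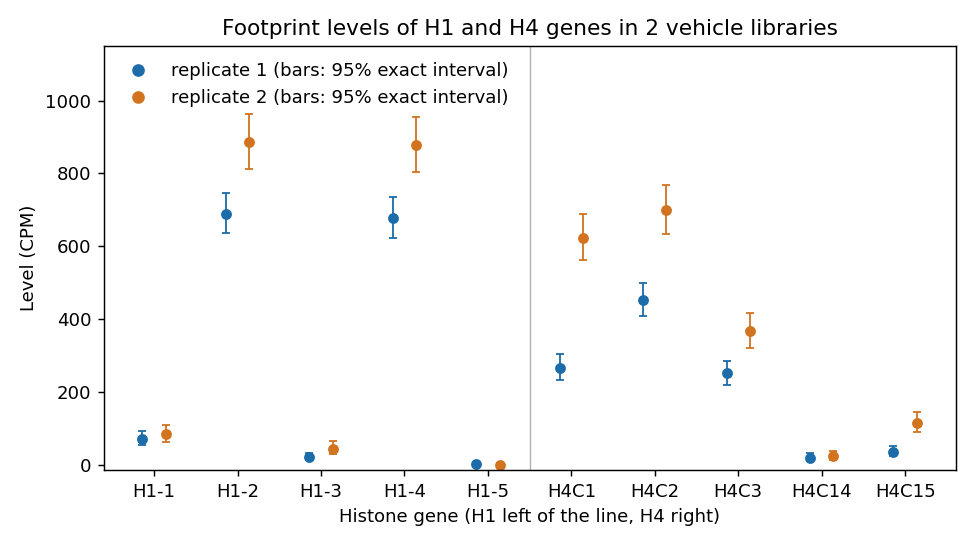
Level of each histone gene in CPM (y axis) in replicate 1 and replicate 2; points are single libraries and bars are 95% exact intervals of counting error. H1-2 and H1-4 lie between 677 and 885 CPM, H4C1, H4C2 and H4C3 between 251 and 699 CPM, and H1-1, H1-3, H1-5, H4C14 and H4C15 at or below 115 CPM.

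The make-up of footprints among the 5 chosen H4 genes differed between the libraries. H4C1 supplied 26.0% (23.2 to 29.1) of the footprints of these 5 genes in replicate 1 and 34.1% (31.4 to 37.0) in replicate 2. H4C2 supplied 44.1% (40.8 to 47.4) in replicate 1 and 38.3% (35.4 to 41.2) in replicate 2, and H4C3 supplied 24.5% (21.7 to 27.4) and 20.1% (17.8 to 22.5). The counting intervals of H4C1 did not overlap, and those of H4C2 and H4C3 did. H4C3 over H4C2 was 0.555 (0.468 to 0.657) in replicate 1 and 0.525 (0.444 to 0.618) in replicate 2, whereas H4C1 over H4C2 was 0.591 (0.500 to 0.697) and 0.892 (0.775 to 1.03). H4C1 and H4C2 stand next to each other in the count table and in the RefSeq gene order. The H4 genes encode the same protein, and the way fragments that match several genes were assigned is not given. The coding sequences of H4C1, H4C2 and H4C3 were not compared, so their split is uncertain to an unknown degree.

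H1 genes are longer than H4 genes, so levels were compared between genes per kb of RefSeq gene length (GRCh38.p14, whereas the counts were made on hg19). The lengths were 731 to 797 bases for the 5 H1 genes and 388 to 405 bases for 4 of the H4 genes. The RefSeq model of H4C15 spans 16753 bases and holds more than the histone mRNA, so H4C15 was left out. By its mean H4C2 came first, at 1164 CPM per kb in replicate 1 and 1800.4 CPM per kb in replicate 2. H4C1 followed with 664 and 1550.5 CPM per kb, H1-2 with 943 and 1211 CPM per kb, H1-4 with 860.0 and 1114 CPM per kb, and H4C3 with 619 and 905 CPM per kb, in replicates 1 and 2. Neighbours in this order were then compared within each library by their counting intervals. H4C2 lay above H4C1 in replicate 1, and their intervals overlapped in replicate 2 (1634 to 1979 against 1399 to 1714 CPM per kb). H4C1 changed place with H1-2: it lay below H1-2 in replicate 1 and above it in replicate 2, without overlap in either. The intervals of H1-2 and H1-4 overlapped in both libraries. H1-4 had the higher value than H4C3 in both libraries, with intervals apart in replicate 1 (792 to 932 against 539 to 707 CPM per kb) and just overlapping in replicate 2 (1022 to 1213 against 790.2 to 1031 CPM per kb). H4C3 lay above H1-1 (94.7 and 110.4 CPM per kb) in both libraries, with intervals apart. H1-1 and H4C14 (49.6 and 57.8 CPM per kb) had overlapping intervals in both libraries, as did H4C14 and H1-3 (26.8 and 56.9 CPM per kb), and the place of H4C14 also rests on its uncertain split from H4C15. H1-3 lay above H1-5, at 1.45 and 0 CPM per kb, in both libraries with intervals apart.

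**Figure D3:**
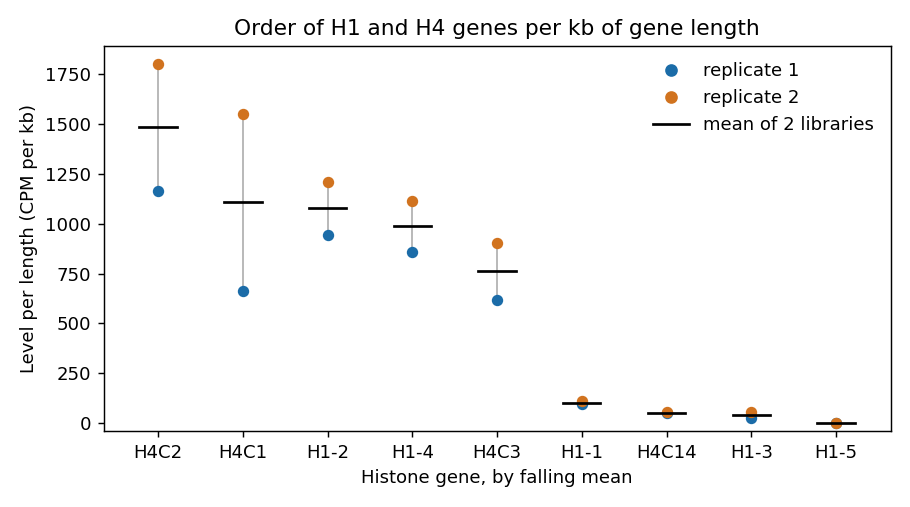
Level per length in CPM per kb (y axis) of 9 histone genes, ordered by their mean; points are the 2 libraries and black bars their means. H4C1 lies below H1-2 in replicate 1 and above it in replicate 2, and the step down to H1-1 at 94.7 and 110.4 CPM per kb leaves a gap.

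Together the 10 genes held 0.248% (0.238 to 0.259) of all counts in replicate 1 and 0.372% (0.356 to 0.387) in replicate 2. The H1 genes held 0.146% (0.138 to 0.154) in replicate 1 and 0.189% (0.178 to 0.200) in replicate 2, and the H4 genes 0.102% (0.0958 to 0.109) and 0.183% (0.172 to 0.194). In counts, H4 over H1 was 0.702 (0.643 to 0.765) in replicate 1 and 0.966 (0.889 to 1.05) in replicate 2. Per kb, the ratio of the summed levels of 4 H4 genes to those of 5 H1 genes was 1.30 in replicate 1 and 1.73 in replicate 2. The chosen H4 genes were thus below the chosen H1 genes in count in replicate 1, with no difference detectable in replicate 2. Per kb they were above them in both. Other H4 genes were not included, so this does not rank all H4 footprints against all H1 footprints. Without H4C1 and H4C15, a choice made after seeing the data, H4 over H1 in counts was 0.494 (0.449 to 0.545) in replicate 1 and 0.576 (0.523 to 0.634) in replicate 2. The share of cells in S phase and the amount of histone mRNA per cell were not measured here. In these bulk samples their parts in the footprint levels cannot be told apart.

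The last comparison was replicate 1 over replicate 2 for each gene, after TMM scaling over the whole table. With 1 library per batch, batch and replicate cannot be told apart, and the labels do not say whether the cultures were independent, so the spread may be partly technical. Of the 10 genes, 9 had at least 20 summed counts, and all 9 had a lower level in replicate 1 than in replicate 2. Their median log2 ratio was -0.66 (range -1.79 to -0.33), beside 0.00 over all 6965 IDs with at least 20 summed counts, of which 49.6% were higher in replicate 2. By library size in place of TMM, all 9 were again higher in replicate 2, with a median of -0.55 beside 0.11 for all IDs, of which 42.7% were higher in replicate 2. The genes were chosen with these values known, so nothing is read from the count of 9.

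At least 100 summed counts were reached by 7 of the 10 genes, and 2 of these, H4C1 and H4C15, had a 95% interval wholly beyond 2-fold, both higher in replicate 2. Over all 2241 IDs with at least 100 summed counts, 0.803% had such an interval in either direction, and 0.491% towards replicate 2. H4C1 had a log2 ratio of -1.33 (-1.58 to -1.09), and 14 of the 2241 IDs were at or below that value. H4C15 had a log2 ratio of -1.79 (-2.45 to -1.16), and 6 of the 2241 IDs were at or below it. By library size, the log2 ratios of H4C1 and H4C15 were -1.22 and -1.68, and only H4C15 stayed beyond 2-fold, beside 0.312% of all IDs towards replicate 2. With TMM scaling and 99% intervals only H4C1 did, beside 7 of all 2241 IDs towards replicate 2. The summed pair of H4C14 and H4C15, an alternative chosen after seeing the data, had a log2 ratio of -1.42 (-1.96 to -0.89), an interval that reached within 2-fold.

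The other genes lay closer to 0. H4C2 had a log2 ratio of -0.74 (-0.94 to -0.54) and H4C3 one of -0.66 (-0.93 to -0.38). H1-2 had -0.47 (-0.64 to -0.30) and H1-4 had -0.48 (-0.65 to -0.31), nearly the same value for the 2 main H1 genes. The intervals of H1-1, at -0.33 (-0.89 to 0.23), and H4C14, at -0.33 (-1.44 to 0.80), reached across 0. H1-3, with 45 summed counts, had -1.20 (-2.14 to -0.28), an interval too wide to place it within or beyond 2-fold. H1-5, with 1 summed count, gave no usable ratio. The median absolute log2 ratio of the 2241 IDs was 0.30.

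**Figure D4:**
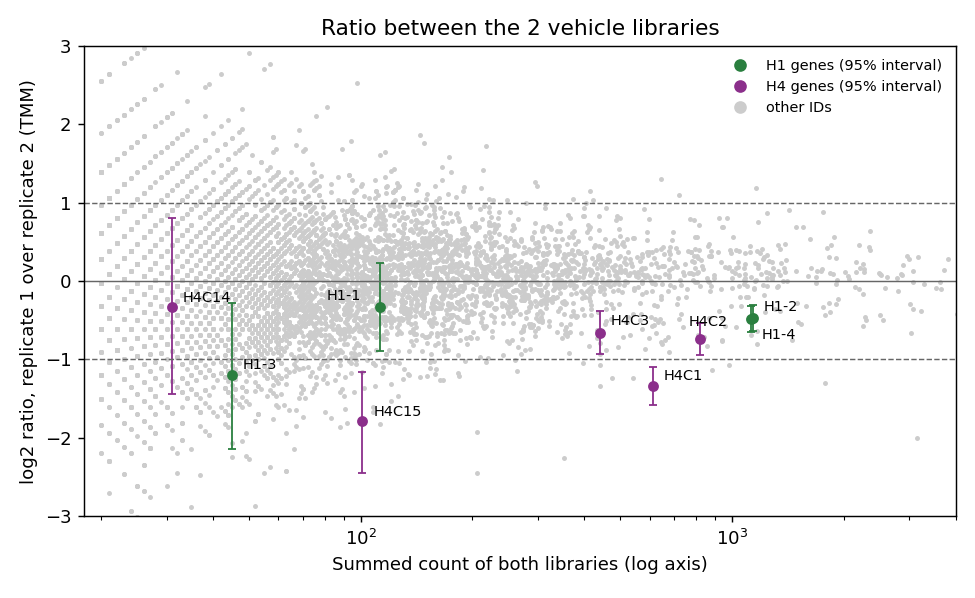
log2 ratio of replicate 1 over replicate 2 after TMM scaling (y axis) against the summed count of both libraries (x axis, log scale) for 9 histone genes with 95% intervals and for other IDs that reached 20 summed counts in grey. All 9 histone genes lie below 0, and the intervals of H4C1 and H4C15 lie below the dashed line at -1; 40 IDs fall outside the axes.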

How the data were processed

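Ribosome footprints were measured in 2 vehicle libraries of HEK293 cells. The authors' deposited values were treated as estimated counts, since 15.2% of values above 0 in replicate 1 and 13.9% in replicate 2 were not whole (tolerance 0.001). They count fragments of 27 to 29 nt per gene ID without scaling, per the labels. Per the submitters' processing notes, the genome build was hg19. For the aligner, counter, annotation, strand setting and handling of fragments with several matches, the sources used here give nothing. Replicates 1 and 2 held 865838 and 611266 counts.

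Levels are counts per 1000000 counts of the library (CPM) with exact Clopper-Pearson intervals at 95%. Ratios of replicate 1 over replicate 2 used values rounded to whole numbers, TMM scaling (edgeR 4.0.16, R 4.3.3) over 6965 IDs (summed count of 20 or more) and conditional exact binomial intervals. The ratio step was tested on simulated data with counting error only. Further spread between libraries and PCR copies were not part of that test. With 1 group there was no contrast and no p-value was computed.

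All 10 members were named, whatever their values. The older symbols of all 10 were matched by synonym to RefSeq (GRCh38.p14), whose gene lengths stood in for the planned coding lengths. No table given paired the other IDs with symbols, so the planned lists of other histones, of histone mRNA processing factors and of chaperones, the cell line markers and the protein comparison were not analysed here. Promoter sequences are from RefSeq, GRCh38.p14. The members and lists were chosen with earlier results of these data known. Other tools were DESeq2 1.42.0, Python 3.11.15, scipy 1.17.1 and pandas 2.3.3. The alternatives tried were other scalings and denominators, count minimums, a 1.5-fold limit, 99% intervals, and each replicate left out.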

Additional observations from a re-analysis of the deposited data

How the results depend on the processing

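No paired analysis was possible because the design holds 1 group. When the total excluded the 2 highest IDs, the mean share of the H1 genes became 0.212%, against 0.167%, beyond the SD of the 2 libraries (0.0304). That of the H4 genes became 0.181%, against 0.143%, and that of all 10 became 0.393%, against 0.310%. These also rose, but by less than their wider SDs (0.0567 and 0.0870). The levels of 5 of the 10 genes moved beyond their SD. TMM and DESeq2 denominators moved no share or level by more than the SD of the 2 libraries. Leaving out each replicate gave 0.146% to 0.189% for H1, 0.102% to 0.183% for H4, 0.248% to 0.372% for all 10, and 0.702 to 0.966 for H4 over H1. That ratio of counts averaged 0.834, and 0.535 without H4C1 and H4C15. The ratio of summed levels per kb averaged 1.51; it changes both the unit and the genes, since H4C15 is left out. All members held whole values, so restricting to those changed nothing. Of 2241 IDs tested, 7 were beyond 2-fold and higher in replicate 1, and 11 were higher in replicate 2. These numbers became 11 and 7 by library size, 4 and 7 with 99% intervals, and 46 and 50 at 1.5-fold. With at least 20 summed counts they were 29 and 56 of 6965 IDs tested. With at least 1 summed count they were 42 and 138 of 16059 IDs tested. The 2 histone genes higher in replicate 2 became 1 by library size (H4C15) and 1 with 99% intervals (H4C1), and stayed 2 under DESeq2 scaling, both lower count minimums and the 1.5-fold limit. None was higher in replicate 1 under any of these settings. Levels per 100 codons and the runs of shared residues were not run, because no coding or protein sequences were used here. Depth limits H1-5, H4C14 and H1-3, with 1, 31 and 45 summed counts.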

Other observations

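The 8 chromosome 6 genes stand in the count table in the same order as in the RefSeq gene order, within a stretch of 106 IDs. The other 98 IDs of that stretch carry no names here, so which of them are other histone genes was not determined. Of these, 29 had at least 20 summed counts, and 25 of the 29 were higher in replicate 2 after TMM scaling, with a median log2 ratio of replicate 1 over replicate 2 of -0.61, beside 49.6% and 0.00 over all 6965 IDs with that minimum. By library size 25 of the 29 were higher in replicate 2, with a median of -0.50, beside 42.7% and 0.11 over all. The 98 IDs together made up 0.635% of replicate 1 and 0.888% of replicate 2. The highest, ENSG00000124693.2, had 1144 counts in replicate 1 and 1112 counts in replicate 2. The next, ENSG00000158406.2, had 544 counts in replicate 1 and 623 counts in replicate 2. Both its counts exceeded those of H4C2, at 391 and 427. The stretch was chosen after the values of the histone genes were seen, and its part in any difference between the libraries was not tested.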
